A study of Mus musculus with 12 samples.

Results

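Line 41589 of mouse embryonic stem cells, which its labels describe as having no siRNA processing, was set against Dicer knockout (KO) cells to find which knockout changes are absent from it. The comparison takes 4 of the 12 libraries of the series, 2 of 41589 and 2 of KO, picked by their labels. All libraries come from E14 cells of the 129/Ola background, and all were made from poly(A) RNA. KO is labelled as the Dicer knockout and WT as wild type. The labels put 41584 close to WT and describe 41585 as unable to process either miRNAs or siRNAs. These 3 groups of 2 libraries serve as references. SOM, a complemented line also of 2 libraries, entered the fit and is shown only where single libraries are compared. The cells grew on gelatin in medium with 15% serum and 100 U/mL of LIF, a cytokine that holds mouse stem cells undifferentiated. Per the labels' growth protocol, the complemented Dicer lines, the WT controls and KO cells were all kept in 1 µg/mL of puromycin. The sources used here give neither the Dicer sequence that 41589 carries, nor the deleted part of the gene, nor the number of clones. The labels of 41589 also do not state that it processes miRNAs.

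Dicer is the cytoplasmic enzyme that cuts hairpin precursors into miRNAs and long double-stranded RNA into siRNAs. A miRNA guides an Argonaute protein to mRNAs that pair with its seed, and the paired mRNA is destabilised and less translated. In mouse embryonic stem cells the miR-290 cluster, some of whose members share 1 seed with miR-302, is the most abundant miRNA group, while let-7 accumulates on differentiation.

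The mature miRNAs below are shown because the target sites counted later pair with their seed. They were taken from RefSeq (GRCm38.p6), and capitals mark bases 2 to 8, the seed, which is AAGUGCU in all 5.
mmu-miR-291a-3p: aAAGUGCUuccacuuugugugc
mmu-miR-294-3p: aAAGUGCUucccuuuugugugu
mmu-miR-295-3p: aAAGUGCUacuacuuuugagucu
mmu-miR-302b-3p: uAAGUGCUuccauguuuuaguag
mmu-miR-302d-3p: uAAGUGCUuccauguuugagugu
The first 3 lie on chromosome 7, miR-291a-3p at chr7:3218968-3218989 on the plus strand, and the other 2 on chromosome 3. The cluster member miR-290a-3p has AAGUGCC at bases 2 to 8, and matches to that seed were not counted. A contrasting seed is that of let-7, GAGGUAG.
mmu-let-7a-5p: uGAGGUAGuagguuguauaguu

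The libraries held 5348401 to 10428509 counts. KO had 8357647 and 6610469, and 41589 had 9618517 and 10428509. Levels are CPM, the count scaled to library size. The 8 stem cell markers checked (Pou5f1, Sox2, Nanog, Zfp42, Esrrb, Sall4, Dppa5a, Tdgf1) were expressed in all 4 libraries, summing to 7197 and 7090 CPM in KO and to 6752 and 6815 CPM in 41589, and none was called different. These sums hide members that moved in opposite ways. Dppa5a, the largest, was at 3424 and 3311 CPM in KO and 1998 and 2201 CPM in 41589. Zfp42 was at 524 and 520 CPM in KO and 836 and 849 CPM in 41589. Pou5f1 differed within 41589, at 274 and 791 CPM. Of 10 fibroblast markers, Col3a1, Lum, Twist2 and S100a4 had no count in these 4 libraries, and the sum of the list was 10.1 and 8.93 CPM in KO and 21.7 and 24.7 CPM in 41589. Markers of primitive endoderm (6 genes, 4.93 to 9.3 CPM), trophectoderm (6 genes, 9.41 to 15.9 CPM), neuroectoderm (4 genes, 2.1 to 5.49 CPM) and mesendoderm (4 genes, 0.462 to 1.37 CPM) summed to low levels in the 4 libraries, and of these the trophectoderm genes Elf5 and Hand1 were called lower in 41589. Members of a sum again differed in direction. Gata4 was at 5.61 and 3.85 CPM in KO and 1.39 and 0.639 CPM in 41589. Gata6, Sox7, Pdgfra and Eomes were higher in both 41589 libraries than in both KO libraries, without a call.

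Single libraries stand apart. KO library 2 held 0 counts of the 8 Y-linked genes checked, which summed to 421 CPM in KO library 1 and to 377 and 332 CPM in 41589. None of the 7 tested was called by edgeR, and 4 were without KO library 1. The 41589 libraries also differed from each other, with a Pearson r of log2 CPM of 0.948, against 0.983 within KO and 0.935 within 41584. Library 2 minus library 1 of 41589 followed the GC content of the transcript, with a Pearson r of 0.58 across 14596 genes, which are not independent replicates. The same r was 0.42 in WT, -0.31 in 41584 and -0.03 in KO. Results are therefore also given without single libraries, and a called gene named here kept its call whichever of the 4 libraries was left out unless a loss is stated. With 2 libraries a group, and no statement that they came from separate cultures, p-values measure only the spread between libraries.

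Dicer1 mRNA was as low in 41589 as in KO. Its level was 28.5 and 44 CPM in KO, 40.2 and 27.8 CPM in 41589, and 197 and 214 CPM in WT. The 41589 and KO libraries overlapped and both lay below both WT libraries. The log2 fold of 41589 over KO was -0.09 ± 0.34 (SE, n = 2 and 2; edgeR adjusted p = 0.916), with a 95% interval from -0.84 to 0.65. Lines 41584 (42.3 and 55 CPM) and 41585 (29.1 and 39.2 CPM) were also in this range. Left out singly, KO library 2 or 41589 library 2 turned the sign of that fold (0.22 and 0.12). Whether a Dicer sequence put back into them is counted at this gene was not tested.

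Of 14629 genes tested with edgeR's quasi-likelihood test, 1037 differed between 41589 and KO at an adjusted p under 0.05 (7.09% of the genes). Of these, 357 were higher in 41589 (2.44%) and 680 lower (4.65%). KO library 1 bears most on the number: without it 186 genes were called, without KO library 2 376, without 41589 library 1 650 and without 41589 library 2 694. A core of 171 genes, 149 lower and 22 higher, was called whichever of these libraries was left out. DESeq2 called 998 of the 1037 in the same direction. In bulk RNA, fewer cells that express a gene and less of its RNA per cell cannot be told apart.

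The knockout itself changed 1929 genes against WT (13.2%), 1066 higher (7.29%) and 863 lower (5.9%). Of the 1066 genes higher in KO, 505 (47.4%) were called lower in 41589 than in KO, 561 were not called and 0 were called higher. Of the 863 genes lower in KO, 281 (32.6%) were called higher in 41589, 582 were not called and 0 were called lower. Both comparisons use the same KO libraries, so chance highs and lows of KO enter both and these shares are partly built in. The genes higher in KO had a median log2 fold of 1.91 in KO against WT and of -1.35 in 41589 against KO. For those lower in KO the medians were -1.83 and 1.28. Over all genes tested the median of 41589 against KO was 0.07.

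A list that uses none of these libraries gives the same comparison without that sharing, although 1 fit supplies the spread for all groups. Line 41585, without miRNA or siRNA processing, differed from 41584 at 1861 genes (12.7%), 1119 higher (7.65%) and 742 lower (5.07%). Of the 1119, 492 (44.0%) were called lower in 41589 than in KO, against 4.65% of all genes, and 0 were called higher. Of the 742, 207 (27.9%) were called higher, against 2.44% of all genes, and 0 lower. The point estimate lay below 0 for 1086 of the 1119 and above 0 for 739 of the 742. The list was cut from a comparison that also depends on its libraries: without 41585 library 1 it held 348 genes and without library 2 561.

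Within this independent list the pair of 41589 libraries did not behave alike. The genes higher in 41585 stood at a median of 1.60 and 1.40 log2 units above the WT mean in the KO libraries. They stood at -0.00492 in 41589 library 1 and at 0.43 in 41589 library 2. The genes lower in 41585 stood at -1.20 and -1.01 in KO, at -0.02 in 41589 library 1 and at -0.53 in library 2. Library 1 thus lay near the WT mean in both directions and library 2 between WT and KO. A place between them was not particular to that library. The SOM libraries stood at 0.25 and 0.30 for the genes higher in 41585 and at -0.53 and -0.35 for those lower. Line 41584, used to cut the list, stood at 0.06 and -0.03 and at -0.14 and -0.16. Over the genes tested, 41589 library 2 had a Pearson r of log2 CPM of 0.976 with SOM library 2 and 0.948 with 41589 library 1. For single genes, 41589 library 1 lay below both KO libraries at 1108 of the 1119 and library 2 at 918. It lay above both at 736 of the 742, and library 2 at 606.

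**Figure D1:**
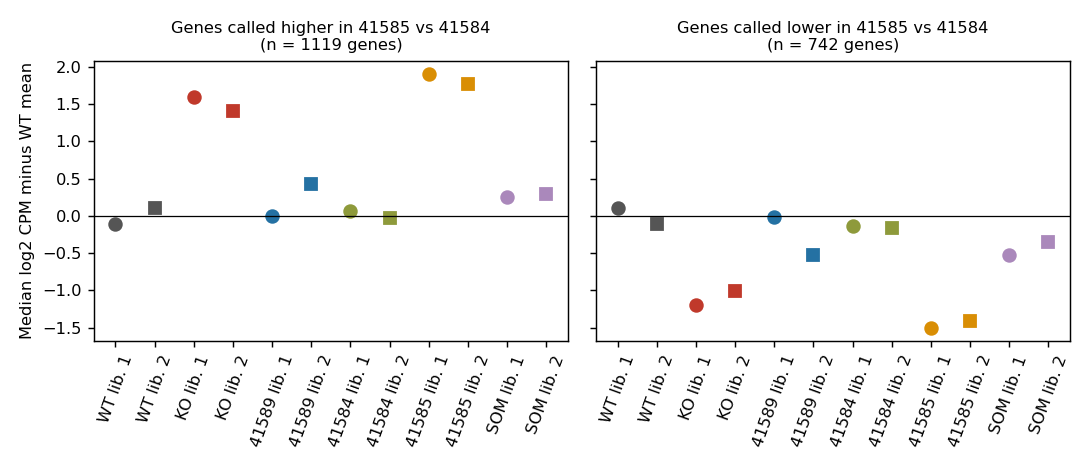
Median level of genes called in 41585 against 41584, as log2 CPM minus the WT mean (y axis), in each of the 12 libraries (x axis, circles for library 1 and squares for library 2 of a group). The KO and 41585 points lie far from 0 in both panels, and the 41589 points lie at -0.00492 and 0.43 on the left and at -0.02 and -0.53 on the right.

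Set directly against WT, line 41589 showed no gene past the threshold with edgeR (0 of 14629, 0%), although 1719 had an unadjusted p under 0.05 and DESeq2 called 75. The count rests on the libraries in the fit: without 41589 library 1 it was 647, and without library 2 it was 0. Against 41584 it was also 0 (0%), with 103 at an unadjusted p under 0.05 and 0 by DESeq2, and 1 without 41589 library 2. A count of 0 does not show that 41589 equals WT. In simulated counts for 41589 against KO the test recovered 22% of 50 genes changed by 1 log2 unit and 84% of 50 changed by 2. That simulation gave each gene the same spread in all groups, whereas the real libraries of 41589 differed more than those of KO or WT. The simulation changed only genes with a mean above 5 CPM, and it was not run for 41589 against WT.

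The genes with the largest falls from KO to 41589 were close to silent in WT as well. Osm, which encodes oncostatin M, a cytokine of the LIF family, was at 19.3 and 14.8 CPM in KO and at 0.107 and 0.183 CPM in 41589, against 1.24 and 1.97 CPM in WT. The 3 counts in 41589 give a KO to 41589 ratio between 39.6 and 571 (95% interval of counting error only; adjusted p = 0.000288). Both 41589 libraries lay below both WT libraries, and 41585 was at 20 and 14.8 CPM.

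Irf2, a transcription factor that represses or activates interferon target genes, had 15.7 and 7.7 CPM in KO and 0.107 and 0.0913 CPM in 41589. Its ratio lay between 33.7 and 1029 (adjusted p = 0.00214). Spint5, named as a serine peptidase inhibitor, went from 7.32 and 6.93 CPM to 0 and 0.0913 CPM, a ratio between 25.5 and 5784 (adjusted p = 0.00628). No KO library of these genes came near a 41589 library.

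Abcb11, the bile salt export pump of liver, had 7.44 and 3.54 CPM in KO and no count in 41589, so that it was at least 38.7-fold higher in KO (against 3 counts over the group; adjusted p = 0.00394). Krtdap, a keratinocyte differentiation protein, fell by 6.62 ± 1.13 on the log2 scale (adjusted p = 0.00465) from 22.4 and 29.6 CPM to 0.321 and 0.183 CPM. Sh3rf2, an adaptor with SH3 domains, fell by 6.08 ± 0.81 (adjusted p = 0.00124) from 14.1 and 15.2 CPM to 0.428 and 0 CPM. All 3 were at or under 0.31 CPM in WT. Krtdap was the one of them on which the 41585 libraries disagreed, with 19.5 and 0.9 CPM.

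The named falls also include Cd96, an immune receptor, whose ratio of KO to 41589 lay between 22.8 and 704. Csf1, which encodes a macrophage growth factor, had 2.93 and 7.85 CPM in KO and 1 count in 41589, and lost its call without KO library 2 or either 41589 library (adjusted p up to 0.1). Lpo, lactoperoxidase, lost its call without KO library 1 or 41589 library 2 (adjusted p up to 0.0768).

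The genes with the largest rises from KO to 41589 were mostly genes that WT cells express and KO cells had almost lost. Tro, which encodes the adhesion-related protein trophinin, was at 1.34 and 4.31 CPM in KO, at 62.7 and 56.3 CPM in 41589 and at 40.7 and 49.9 CPM in WT. It rose by 4.43 ± 0.42 on the log2 scale (adjusted p = 0.000238), and both 41589 libraries exceeded both WT libraries. Serpine2, a secreted inhibitor of serine proteases, was at 2.07 and 3.39 CPM in KO, 56.1 and 47.7 CPM in 41589 and 74.1 and 49.7 CPM in WT. It rose by 4.26 ± 0.50 (adjusted p = 0.000587).

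Gpx3, an extracellular glutathione peroxidase, rose by 4.49 ± 0.51 (adjusted p = 0.000453) to 16.6 and 24.1 CPM. Crabp1, a cytoplasmic carrier of retinoic acid, rose by 4.05 ± 0.55 (adjusted p = 0.00144) to 14.2 and 15.4 CPM, with WT at 13.3 and 17.6 CPM. Piwil4, a PIWI protein of the germline piRNA pathway, rose by 3.95 ± 0.54 (adjusted p = 0.00155), from 0.488 and 0.616 CPM to 11.2 and 6.21 CPM. The groups did not overlap for any of the 3.

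Sema5b, a transmembrane semaphorin, and Prmt8, an arginine methyltransferase of the plasma membrane, rose by 4.26 ± 0.58 (adjusted p = 0.00148) and 3.99 ± 0.61 (adjusted p = 0.003). In both, the 41589 libraries lay above both WT libraries: 8.66 and 18.4 against 3.56 and 6.24 CPM for Sema5b, and 15.4 and 38.8 against 8.2 and 7.22 CPM for Prmt8. Gap43, a growth cone protein of neurons, also stood above WT, with 7.06 and 14.9 CPM against 0.773 and 1.42 CPM. KO held 3 counts of it, for a 41589 to KO ratio between 18.7 and 270, and its call was lost without KO library 1 (adjusted p = 0.0793).

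The other named rises include Matn3, a cartilage matrix protein, whose 2 counts in KO give a ratio between 13.8 and 422, and which lost its call without either KO library (adjusted p up to 0.0985). Tgfbi, a secreted matrix protein, lost its call without KO library 1 (adjusted p = 0.118). Kdelr3, a receptor that retrieves proteins to the endoplasmic reticulum, lost it without KO library 1 or 41589 library 1 (adjusted p up to 0.156), and Susd5 lost it without any of these or KO library 2 (adjusted p up to 0.206).

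**Figure D2:**
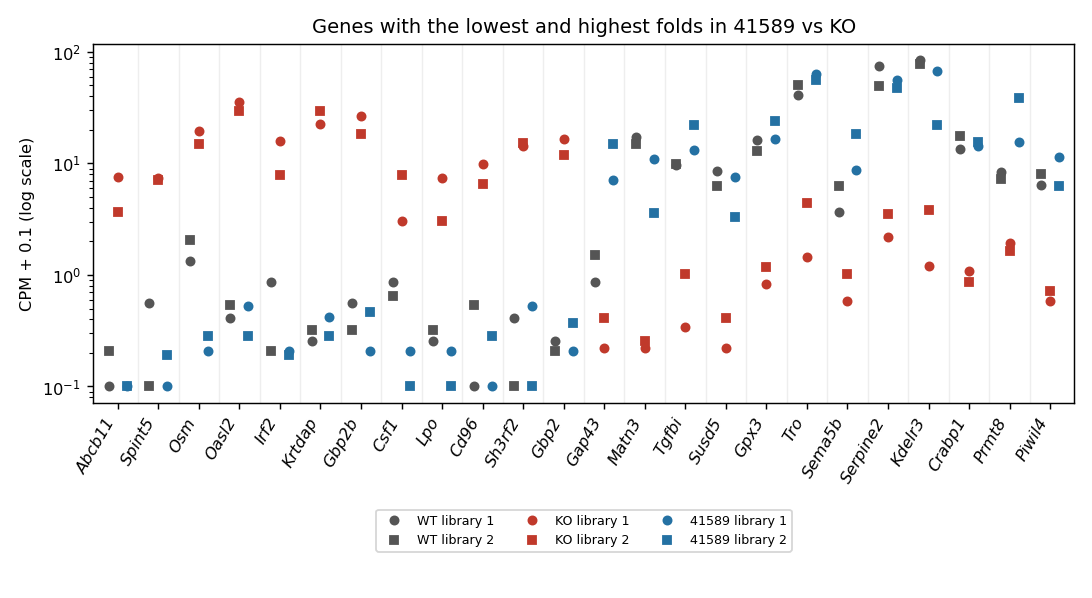
Levels of the 12 genes with the lowest and the 12 with the highest fold in 41589 against KO (x axis, lowest first), as CPM plus 0.1 on a log scale (y axis), for WT (grey), KO (red) and 41589 (blue), with circles for library 1 and squares for library 2. On the left KO stands alone at the top, from 2.93 CPM for a Csf1 library to 35.4 CPM for an Oasl2 library, and on the right 41589 lies above KO in each gene, and both WT libraries lie below both 41589 libraries for Gap43, Tgfbi, Gpx3, Tro, Sema5b and Prmt8.

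Of 36 interferon and double-stranded RNA sensing genes tested, 13 were called lower in 41589 than in KO (36.1% against 4.65% of all genes), 23 were not called and 0 were higher, with a median log2 fold of -1.47. Point estimates lay below 0 for 31 and above 0 for 5, with log2 folds from -7.80 to 2.66. In KO against WT 22 of the same 36 were called higher and 0 lower. Without KO library 1 the list had 4 calls, without KO library 2 9, without 41589 library 1 6 and without 41589 library 2 13. The summed trophectoderm markers were 15.9 and 11.2 CPM in KO and 9.52 and 9.41 CPM in 41589, and their part in this difference was not tested.

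Gbp2, a guanylate-binding GTPase of the response to interferon, illustrates the range. Its level was 16.6 and 11.7 CPM in KO, 0.107 and 0.274 CPM in 41589, and 0.155 and 0.109 CPM in WT. It fell by 6.07 ± 0.61 (adjusted p = 0.000274). Both KO libraries stood far above all 4 others, and 41585 was at 12.8 and 13.8 CPM. The neighbouring paralogues Gbp2b, which fell by 6.43 ± 0.65 (adjusted p = 0.000314), and Gbp3, with 3.66 and 3.54 CPM in KO and no count in 41589 (at least 24.4-fold higher in KO), behaved alike, but near-identical copies of this family can share reads and single members are uncertain.

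Oasl2, an antiviral protein of the oligoadenylate synthetase family, fell by 6.69 ± 0.87 (adjusted p = 0.00148), from 35.4 and 29.6 CPM to 0.428 and 0.183 CPM. Psmb8, a subunit of the immunoproteasome, had 9.15 and 4 CPM in KO and 3 counts in 41589, a ratio between 15.5 and 229 (adjusted p = 0.00358). Irf1, a transcription factor induced by interferon gamma, fell by 2.02 ± 0.36 (adjusted p = 0.00628), from 69.5 and 58.8 CPM to 9.73 and 21.8 CPM. Its call was lost without KO library 1 (adjusted p = 0.0661).

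Folds were smaller for most sensors and signal carriers of the pathway. Irf9, the DNA-binding part of the interferon-stimulated factor ISGF3, went from 54.5 and 51.6 CPM to 14.2 and 22.1 CPM (log2 fold -1.54 ± 0.31, adjusted p = 0.0109), and lost its call without either KO library or 41589 library 1 (adjusted p up to 0.106). Ifih1, the cytosolic RNA sensor MDA5, had 4.27 and 1.85 CPM in KO and 1 count in 41589, a ratio between 11.1 and 2619, and lost its call without any single library of the 4 (adjusted p up to 0.252). Ddx58, the sensor RIG-I, was at 126 and 107 CPM in KO and at 25.9 and 66.6 CPM in 41589, against 4.95 and 20.3 CPM in WT, and was called without the filter on low counts but not by edgeR as used here (log2 fold -1.33 ± 0.72, adjusted p = 0.319). The adaptor Mavs (-0.85 ± 0.25, edgeR adjusted p = 0.0577) was called by DESeq2, without 41589 library 2 and with the trend over GC content and length removed, but not by edgeR as used here. Ddx58, Mavs and Ifih1 were chosen after their values were seen.

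**Figure D3:**
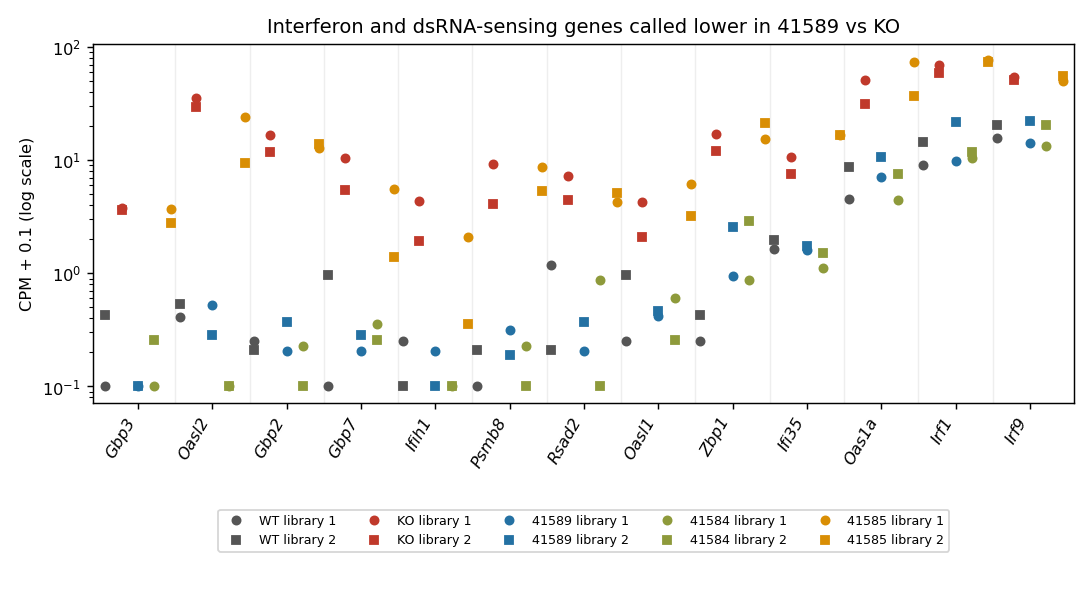
The 13 interferon and double-stranded RNA sensing genes called lower in 41589 than in KO (x axis), as CPM plus 0.1 on a log scale (y axis), in the libraries of WT, KO, 41589, 41584 and 41585, with circles for library 1 and squares for library 2. In each gene both 41589 libraries lie below both KO libraries, for example 9.73 and 21.8 against 69.5 and 58.8 CPM for Irf1.

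Promoters of the list members tested were searched, those of the 13 called lower and those of the rest. The window holds 250 bases before and 50 after the annotated start (RefSeq, GRCm38.p6), and the motifs, on both strands, were the core of an interferon-stimulated response element (GAAA, any 2 bases, then GAAA) and TTCNNNGAA, the core of a STAT site. Of the 13 genes, 12 had a promoter entry, and 6 of them carried the first motif and 5 the second. Among 19 list members tested and not called lower with an entry, 11 carried the first and 5 the second. Of all 32851 promoters, 3.44% held the first and 8.3% the second. Counted by gene, as for the list, 1079 and 2582 of 27025 genes carried them. The promoters of Gbp2 (chr3:142620413-142620712, plus strand) and Oas1a (chr5:120907476-120907775, minus strand) are printed with motif matches in capitals, the first with 1 response element core and the second with 2 overlapping ones and a STAT core.
Gbp2: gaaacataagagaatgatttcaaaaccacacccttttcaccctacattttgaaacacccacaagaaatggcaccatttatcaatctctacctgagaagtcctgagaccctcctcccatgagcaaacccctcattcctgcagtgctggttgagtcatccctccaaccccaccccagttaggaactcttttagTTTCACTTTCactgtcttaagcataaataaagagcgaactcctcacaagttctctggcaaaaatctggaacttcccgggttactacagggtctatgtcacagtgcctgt
Oas1a: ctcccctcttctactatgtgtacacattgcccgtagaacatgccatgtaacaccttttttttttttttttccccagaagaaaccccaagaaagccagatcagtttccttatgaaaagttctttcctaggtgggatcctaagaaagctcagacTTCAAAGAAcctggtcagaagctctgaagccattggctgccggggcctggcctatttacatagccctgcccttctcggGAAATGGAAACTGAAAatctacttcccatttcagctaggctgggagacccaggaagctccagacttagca
Oas1a, an oligoadenylate synthetase, went from 51.1 and 31.1 CPM in KO to 6.95 and 10.5 CPM in 41589 (log2 fold -2.23 ± 0.46, adjusted p = 0.0132). Its call was lost without KO library 1 or 41589 library 1 (adjusted p up to 0.156). A motif match describes these letters only.

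Of 17 genes tested that are reported elsewhere as targets of the miR-290 family, 5 were called lower in 41589 (Irf2, Tgfbr2, Nr2f2, Lats2, Lefty1; 29.4% against 4.65% of all genes), 12 were not called and 0 were higher, and the median log2 fold was -0.73, with 16 of 17 point estimates below 0. In KO against WT 6 of them were called higher and 0 lower. Without KO library 1 the list had 2 calls, without KO library 2 3, without 41589 library 1 2 and without 41589 library 2 4.

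Lats2, a kinase of the Hippo pathway that restrains growth, was at 29.9 and 22.3 CPM in KO and at 3.42 and 6.48 CPM in 41589, against 1.24 and 1.53 CPM in WT. The 41589 libraries lay between KO and WT without overlapping either. Its log2 fold against KO was -2.39 ± 0.55 (adjusted p = 0.0203), a call lost without either KO library or 41589 library 1 (adjusted p up to 0.164). Tgfbr2, the type II receptor of TGF-beta, fell by 2.88 ± 0.50 (adjusted p = 0.00561), from 7.68 and 10.8 CPM to 1.39 and 1.1 CPM. Lefty1, a secreted antagonist of Nodal, was at 20.2 and 30.8 CPM in KO and 5.88 and 7.12 CPM in 41589 (-1.97 ± 0.46, adjusted p = 0.023), and lost its call without any single library of the 4 (adjusted p up to 0.17).

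The 8-base matches to the seed in these 3 transcripts and in Irf2 are printed with up to 12 bases before and 10 after, in DNA letters of the mRNA strand, with the match in capitals (GENCODE M21, GRCm38). All lie in 3′ UTRs.
Lats2: cagtatggaaagAGCACTTAttttgtggat
Tgfbr2: atcaaaacctaaAGCACTTAttttcaatct
Lefty1: cactgtatgcgaAGCACTTAcatgtataga
Irf2: accttatcttgaAGCACTTAcaataggcct
They lie at chr14:57691076-57691105 (minus strand), chr9:116087761-116087790 (minus), chr1:180938201-180938230 (plus) and chr8:46846652-46846681 (plus). Nr2f2, a nuclear receptor, had 3.9 and 2.46 CPM in KO and 1 count in 41589, a ratio between 11.3 and 2673, and no 7-base match in its annotated 3′ UTR of 2713 bases. Its call was lost without KO library 1 or 41589 library 1 (adjusted p up to 0.103). Listed targets with an 8-base match can also stay level: Fbxl5, an F-box protein, had a log2 fold of 0.00 and Lefty2, the paralogue of Lefty1, one of -0.16 (adjusted p = 0.996 and 0.92).

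Across all 12882 tested genes with a 3′ UTR of at least 50 bases, the median fold of those with a seed match was lower than that of the others. The 463 genes with an 8-base match had a median log2 fold of -0.16, and 49 of them were called lower (10.6%) and 9 higher (1.94%). The 12419 without it had a median of 0.08, and 4.76% were called lower and 2.69% higher. Any 7-base match (AGCACTT) was found in 2285 genes, with a median of -0.02, against 0.10 for the 10597 without. Genes with a match have longer UTRs, with a median of 2904 bases for the 8-base class and 1151 without. In equal classes of short, middle and long UTRs, which held 29, 108 and 326 genes with the 8-base match, the difference in medians was -0.47, -0.40 and -0.14.

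A lower level of these genes than in KO was also measured outside 41589. Relative to the WT mean, the median of the 8-base class was 0.10 and 0.10 log2 units in KO, -0.04 and -0.30 in 41589, and -0.09 and -0.03 in 41585, the line labelled without miRNA processing. It was -0.14 and -0.12 in 41584. The 7-base class was at -0.03 and 0.0004 in KO, -0.02 and -0.22 in 41589 and -0.14 and -0.07 in 41585. Both 41585 libraries thus lay below both KO libraries in both classes.

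The libraries of 41589 again differed. For the 7-base match the difference in medians was 0.02 and -0.01 when 41589 library 1 was set against KO libraries 1 and 2, and -0.22 and -0.23 for 41589 library 2. For the 8-base match it was -0.17, -0.16, -0.37 and -0.37. Against KO, the 7-base difference was seen with 41589 library 2 alone and the 8-base difference in every pairing, beside the like shift of the 8-base class in 41585. With each library's trend over GC content and length taken out, a step chosen after seeing the data, the differences were -0.11 and -0.22. Genes with a let-7 match (7 bases, 1390 genes) had a median of 0.07, against 0.08 for the others.

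**Figure D4:**
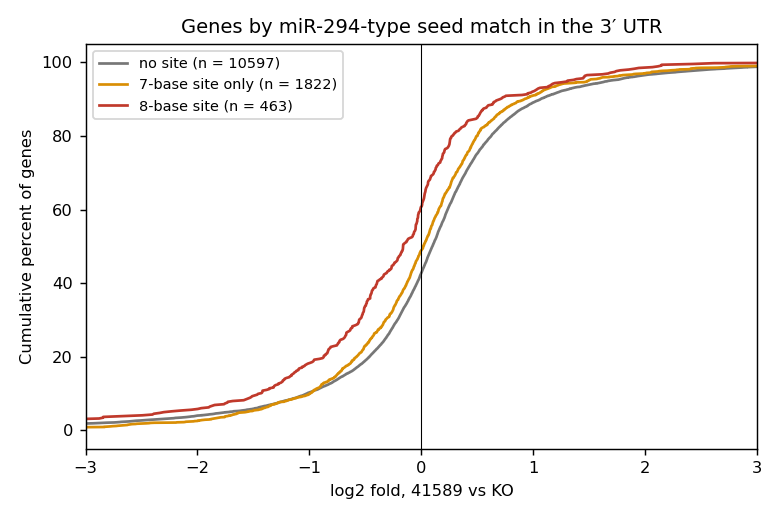
Cumulative percent of genes (y axis) by log2 fold of 41589 over KO (x axis), for genes without a miR-294-type seed match in the 3′ UTR (10597), with a 7-base match only (1822) and with an 8-base match (463). The medians are 0.10, 0.02 and -0.16, and the curve of the 8-base class lies to the left of the others.

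Of 20 reported let-7 targets, 1 was called higher and 1 lower (2.44% and 4.65% over all genes), with a median of -0.13. The pair called stands out for opposite directions. Hmga2, a chromatin architectural protein, was at 101 and 73.4 CPM in KO, 14.2 and 12.7 CPM in 41589 and 20.9 and 11.4 CPM in WT, and fell by 2.70 ± 0.34 (adjusted p = 0.000964). Lin28a, the RNA-binding protein that blocks let-7 maturation, was at 18.5 and 24.2 CPM in KO, 212 and 261 CPM in 41589 and 121 and 211 CPM in WT, and rose by 3.47 ± 0.37 (adjusted p = 0.000314). In both genes KO stood apart from all 4 other libraries.

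Lin28a was also the single member of the small RNA machinery called higher, of 19 tested, and the list had 1 call without either KO library. Tnrc6a and Tnrc6b, scaffolds that link Argonaute to mRNA decay, were called lower. With Lin28a these calls are 15.8% of the list, against 7.09% of all genes. Tnrc6a went from 292 and 312 CPM to 159 and 140 CPM (-1.01 ± 0.26, adjusted p = 0.0338), with WT at 150 and 139 CPM. Tnrc6b went from 305 and 274 CPM to 168 and 91.6 CPM (-1.15 ± 0.28, adjusted p = 0.028). Tnrc6a lost its call without any single library of the 4 (adjusted p up to 0.18) and Tnrc6b without either KO library or 41589 library 2 (adjusted p up to 0.217). Ago1, which binds miRNAs, was at 226 and 213 CPM in KO and 97.2 and 124 CPM in 41589, and was called by DESeq2, with the replicate block and without the filter on low counts, but not by edgeR as used here (-0.99 ± 0.33, adjusted p = 0.0967).

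Genes that endogenous siRNAs are reported to restrain in mouse oocytes showed no call. The 4 tested were Ppp4r1 (-0.53 ± 0.27, adjusted p = 0.294), Pdzd11 (-0.22 ± 0.28, adjusted p = 0.721), Kif4 (-0.20 ± 0.22, adjusted p = 0.669) and Rangap1 (-0.18 ± 0.34, adjusted p = 0.812). Ppp4r1, a phosphatase regulator, was called higher in KO than in WT (109 and 112 against 52.7 and 62.1 CPM) and was at 58.7 CPM, within the WT range, in 41589 library 1 and at 94.5 CPM, between WT and KO, in library 2. Such a list speaks of oocytes, and the sources used here give no list for these cells.

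Of 20 epithelial genes, 7 were called lower in 41589 (35% against 4.65% of all genes), 13 were not called and 0 were higher, with a median of -1.48. In KO against WT 8 were called higher and 0 lower. Without KO library 1 the list had 2 calls, and without 41589 library 1 it had 3. Krt8, a keratin of simple epithelia, was at 116 and 115 CPM in KO, 4.28 and 2.83 CPM in 41589 and 4.02 and 6.67 CPM in WT, and fell by 5.02 ± 0.84 (adjusted p = 0.00448). Its partner Krt18 fell by 3.76 ± 0.75 (adjusted p = 0.0104) but lost its call without KO library 1 or either 41589 library (adjusted p up to 0.0587). Both lie on chromosome 15, and 41585 disagreed between its libraries, with 191 and 28.6 CPM for Krt8.

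Cldn7, a tight junction protein, fell by 4.12 ± 0.68 (adjusted p = 0.00406), from 23.4 and 19.6 CPM to 1.07 and 1.37 CPM, below both WT libraries (6.19 and 3.72 CPM). Krt19 fell by 2.81 ± 0.45 (adjusted p = 0.00373), from 26.6 and 14.9 CPM to 2.89 and 3.01 CPM, a call lost without KO library 1 (adjusted p = 0.0544). Esrp1, a splicing regulator of epithelial cells, was at 157 and 119 CPM in KO, 10.4 and 22.7 CPM in 41589 and 56.1 and 47.8 CPM in WT (-3.06 ± 0.64, adjusted p = 0.0138). It lost its call without KO library 1 or 41589 library 1 (adjusted p up to 0.0953). Zeb1, a repressor of epithelial genes, moved the other way, from 4.03 and 8.31 CPM to 42.1 and 23.5 CPM (2.42 ± 0.41, adjusted p = 0.00488). Its call was lost without KO library 1. Zeb1 belongs to the mesenchymal transition list, which as a whole did not rise: of 10 tested, 1 was called higher and 2 lower. Point estimates of that list lay below 0 for 5 and above 0 for 5, with a median of -0.24.

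Immediate early genes, which respond within minutes to growth signals, had 5 of 13 called lower (38.5% against 4.65% of all genes) and 0 higher, with a median of -1.15, and 2 calls without KO library 1. Fosl2, a partner in the AP-1 factor, fell by 3.47 ± 0.56 (adjusted p = 0.00389), from 17.7 and 20 CPM to 0.962 and 2.37 CPM. Klf6, a zinc finger factor, fell by 1.64 ± 0.26 (adjusted p = 0.00349), from 144 and 156 CPM to 54.7 and 42 CPM. Jun, the AP-1 core protein, went from 22.2 and 19.09 CPM to 2.99 and 2.1 CPM (-3.02 ± 0.57, adjusted p = 0.00775), and lost its call without KO library 1 (adjusted p = 0.0654). The other calls were Dusp1 and Jund, both lost without KO library 1 (adjusted p = 0.0521 and 0.235) and Jund without each other library too.

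Trophectoderm genes had 5 of 13 called lower (38.5% against 4.65% of all genes) and 0 higher, with a median of -1.05. The 5 were Krt8, Krt18, Elf5, Hand1 and Tead4, and Krt8 and Krt18 are also in the epithelial list. Point estimates lay below 0 for 9 members and above 0 for 4. Among the latter, Eomes went from 2.93 and 2.93 CPM in KO to 6.84 and 8.22 CPM in 41589 (log2 fold 1.36, edgeR adjusted p = 0.0618). Elf5, a trophoblast factor, had 9.27 and 3.69 CPM in KO and 3 counts in 41589, a ratio between 15.3 and 227. It lost its call without KO library 1 or either 41589 library (adjusted p up to 0.137), and Hand1 and Tead4 lost theirs without any single library of the 4 (adjusted p up to 0.303). The list had 1 call without KO library 1, 3 without KO library 2, 2 without 41589 library 1 and 1 without 41589 library 2. Those counts without single libraries take calls of either direction. Cdx2, the defining trophectoderm factor, was at 0.244 and 0 CPM in KO and at 0.107 and 0.0913 CPM in 41589.

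Of 22 genes of the pluripotency network, 4 were called higher and 2 lower (2.44% and 4.65% over all genes), with a median of 0.18. Klf4, a naive-state factor, was at 53.8 and 51.7 CPM in KO, 247 and 179 CPM in 41589 and 375 and 250 CPM in WT, and rose by 2.01 ± 0.26 (adjusted p = 0.00112). Tcl1, a cofactor of AKT, rose by 2.14 ± 0.37 (adjusted p = 0.00549), Klf5 by 1.23 ± 0.26 (adjusted p = 0.0149) and Tbx3 by 1.10 ± 0.25 (adjusted p = 0.0186). Klf2 moved opposite to its relatives and fell by 1.42 ± 0.24 (adjusted p = 0.00421), from 176 and 163 CPM to 59.5 and 66.9 CPM. Fgf4, a growth factor that primes stem cells for differentiation, fell by 1.19 ± 0.26 (adjusted p = 0.0166). Of these, only Klf4 kept its call in each fit without 1 library, and all the others lost it without KO library 1 (adjusted p up to 0.218). The list had 1 call without KO library 1, 3 without KO library 2 and 4 without 41589 library 2. Klf5 and Fgf4 also lost theirs without KO library 2 or 41589 library 2, and Tbx3 without KO library 2 or 41589 library 1.

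Targets of p53 had 4 of 22 called higher (Zmat3, Pmaip1, Aen, Plk2; 18.2% against 2.44% of all genes) and 0 lower, with a median of 0.62. Zmat3, an RNA-binding tumour suppressor, went from 123 and 135 CPM to 288 and 252 CPM (1.06 ± 0.25, adjusted p = 0.0218), and Pmaip1, the pro-death protein NOXA, from 31.8 and 29.6 CPM to 99.7 and 54.1 CPM (1.32 ± 0.31, adjusted p = 0.0232). All 4 calls were lost without either KO library (adjusted p up to 0.388). Zmat3, Pmaip1 and Plk2 also lost theirs without 41589 library 1, and Aen and Plk2 without 41589 library 2. The list had 2 calls without 41589 library 1. Cdkn1a, the p53 target p21 and a reported miR-290 target, was at 92.6 and 89.8 CPM in KO and at 46.5 and 40.6 CPM in 41589, and was called by DESeq2, in the fit of the 4 libraries alone and without the filter on low counts, but not by edgeR as used here (-1.07 ± 0.37, adjusted p = 0.111).

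Among cell cycle genes, 1 of 22 was higher (Rb1) and 4 were lower (Lats2, Cdkn2a, Cdkn2b, Ccne2), with a median of -0.44. These calls are 22.7% of the list, against 7.09% of all genes (2.44% higher and 4.65% lower). Lats2 is also in the list of miR-290 family targets. Rb1, which holds cells before S phase, went from 30.7 and 37.4 CPM to 113 and 65.2 CPM (1.38 ± 0.34, adjusted p = 0.0302). Cdkn2b, an inhibitor of cyclin D kinases, went from 5.37 and 4.16 CPM to 0.855 and 0.639 CPM (-2.66 ± 0.54, adjusted p = 0.0119). The list had 0 calls without KO library 1, 1 without KO library 2, 1 without 41589 library 1 and 2 without 41589 library 2. Cdkn2a and Ccne2 lost theirs without any single library of the 4 (adjusted p up to 0.21), Rb1 without either KO library or 41589 library 1 (adjusted p up to 0.273) and Cdkn2b without KO library 1 or 41589 library 2 (adjusted p up to 0.132).

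Germline genes that DNA methylation silences were measured at 19 loci. Of these 19 tested, 6 were called lower in KO than in WT and 1 was called higher. In 41589 against KO 1 was called higher, Sycp3, and 0 lower (5.26% called, against 7.09% of all genes), with a median of 1.02. Sycp3, a protein of meiotic chromosome axes, was at 18.8 and 16.6 CPM in KO, 72 and 46.9 CPM in 41589 and 173 and 74.3 CPM in WT (1.74 ± 0.39, adjusted p = 0.0181), and lost its call without either KO library or 41589 library 1 (adjusted p up to 0.142). Without 41589 library 2, 4 members were called higher, and without 41589 library 1 none was. Dazl, an RNA-binding protein of germ cells, showed that split, with 113 CPM in 41589 library 1, 30 CPM in library 2 and 22.3 and 19.7 CPM in KO, and was called by DESeq2, with the replicate block and without the filter on low counts, but not by edgeR as used here (1.76 ± 0.57, adjusted p = 0.0823).

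The imprinted growth factor Igf2 was among the steepest falls, from 75.5 and 123 CPM in KO to 3.53 and 3.74 CPM in 41589, with WT at 3.4 and 2.73 CPM (-4.76 ± 0.90, adjusted p = 0.00783, lost without 41589 library 1 at 0.0514). Its receptor Igf2r, which clears it, rose from 68.1 and 51.7 CPM to 151 and 114 CPM (1.15 ± 0.30, adjusted p = 0.04, lost without any single library of the 4, up to 0.294). The imprinted list as a whole had those 2 calls among 22 and a median of 0.23, and 1 call without either KO library or without 41589 library 1. The 2 calls are 9.09% of the 22 tested, against 7.09% of all genes. The 41585 libraries disagreed on Igf2, with 23 and 1.29 CPM.

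**Figure D5:**
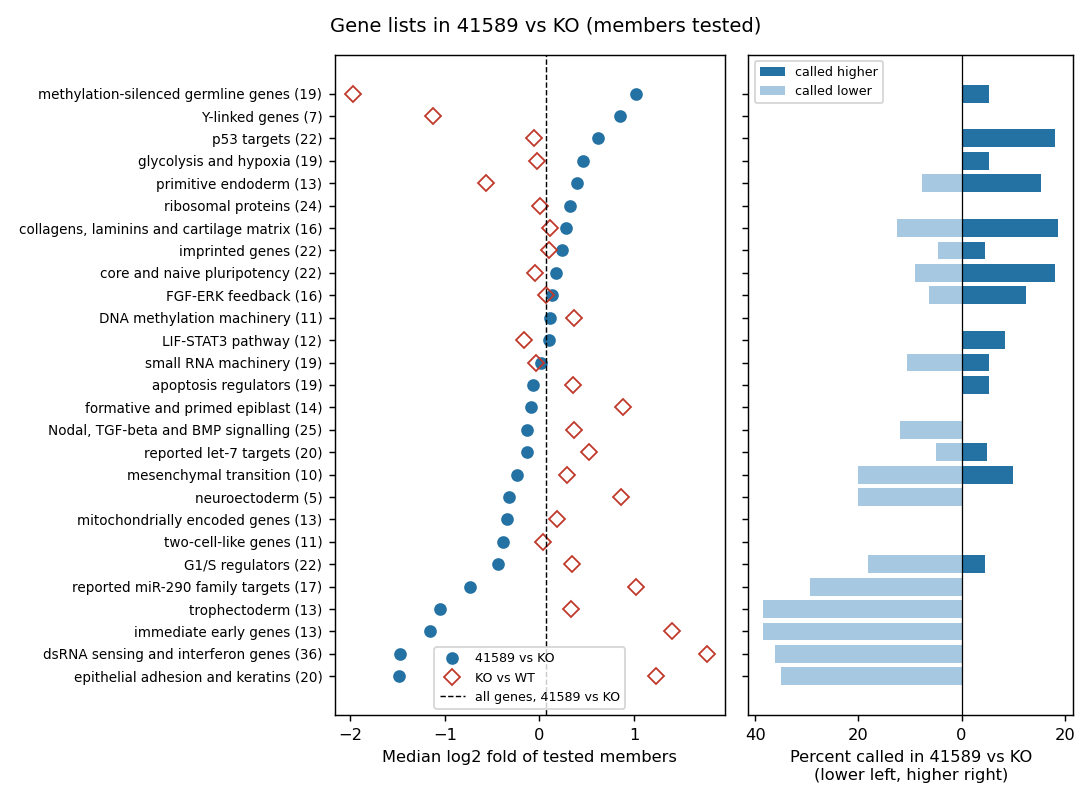
Median log2 fold of each gene list with at least 5 tested members (left, number tested in brackets) in 41589 against KO (circles) and in KO against WT (diamonds), with the median of all genes as a dashed line, and the percent of tested members called lower and higher in 41589 against KO (right). The epithelial and interferon lists lie lowest, at -1.48 and -1.47, and the germline list highest, at 1.02.

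Other lists are given beside the share of all genes called, 7.09% (2.44% higher and 4.65% lower). Formative epiblast genes (14 tested), DNA methylation enzymes (11), 2-cell-like genes (11), ribosomal proteins (24) and mitochondrially encoded genes (13) had 0 calls by edgeR in 41589 against KO, with medians of -0.09, 0.12, -0.38, 0.32 and -0.34. Ribosomal proteins had 4 calls without 41589 library 1, and summed to 20394 and 25295 CPM in the 41589 libraries. Nodal, TGF-beta and BMP genes had 3 of 25 called lower (12%), and FGF-ERK feedback genes 2 of 16 higher and 1 lower (18.75%). LIF pathway genes had 1 of 12 higher (8.33%), apoptosis regulators 1 of 19 higher (5.26%) and glycolysis genes 1 of 19 higher (5.26%). Collagens, laminins and cartilage matrix genes had 3 of 16 higher and 2 lower (31.25%). Without KO library 1 these last 6 lists held 1, 0, 0, 0, 0 and 0 calls, and without KO library 2 1, 0, 0, 0, 0 and 1. Without 41589 library 1 they held 2, 2, 1, 1, 0 and 3 calls, and without 41589 library 2 2, 1, 0, 1, 2 and 4. Mesenchymal transition genes had 1 of 10 higher and 2 lower (30%, median -0.24). Primitive endoderm genes had 2 of 13 higher and 1 lower (23.1%, median 0.40), and neuroectoderm genes 1 of 5 lower (20%, median -0.32). Those 3 lists held 1, 0 and 0 calls without KO library 1.

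Some genes of the knockout comparison were also away from WT in 41589. Of the genes higher in KO than in WT, 273 were above WT in 41589 at an unadjusted p under 0.05, and of those lower in KO 142 were below WT, with 21 and 3 the opposite way and none past the adjusted threshold by edgeR. Both comparisons use the same WT libraries, so these counts are partly built in. Over all 14629 genes tested, 1515 went the same way as KO at that unadjusted p and 204 the opposite way. Among the 12700 genes not called in KO against WT these counts were 1100 and 180. An excess of the same way was thus also present outside the knockout changes, where the WT libraries are shared too. Whether its size differs between the knockout changes and the other genes was not tested. For the list from 41585 against 41584, the counts were 173 the same way and 48 the opposite way among the 1119 genes, and 57 and 17 among the 742. The list itself was cut without WT. The way of each gene was still read from KO against WT, so the WT libraries enter both sides of these counts too. The following were chosen after their values were seen. Lamc1, a laminin chain of basement membranes, was at 83.4 and 114 CPM in WT, 420 and 358 CPM in KO and 234 and 454 CPM in 41589. Rab29, a small GTPase of the Golgi, was at 0.773 and 0.547 CPM in WT, 8.17 and 7.54 CPM in KO and 5.77 and 5.3 CPM in 41589.

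Nav1, a microtubule-associated protein of neurons, showed the same order, with 27.7 and 30.8 CPM in WT, 104 and 92.8 CPM in KO and 64.9 and 86.8 CPM in 41589. Egr1, an immediate early factor, was at 26.9 and 28.1 CPM in WT, 139 and 123 CPM in KO and 72.7 and 113 CPM in 41589. Against KO, none of the 4 was called (log2 folds -0.18 ± 0.31 for Lamc1, -0.51 ± 0.42 for Rab29, -0.37 ± 0.24 for Nav1 and -0.49 ± 0.33 for Egr1, adjusted p = 0.799, 0.543, 0.404 and 0.436). All 4 were also above both WT libraries in both libraries of 41584, the line labelled close to WT, with 304 and 395 CPM for Lamc1 and 4.73 and 4.2 CPM for Rab29. Without 41589 library 1 the fold of Lamc1 turned to 0.22.

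Efhc2, which encodes an EF-hand protein, was nearly absent from both lines, with 216 and 40 CPM in WT, 2.32 and 1.39 CPM in KO, 6.42 and 0.548 CPM in 41589 and 5.5 and 5.13 CPM in 41584. The receptor tyrosine kinase Ret was at 11 and 8.53 CPM in WT, 2.07 and 1.54 CPM in KO and 2.99 and 1.83 CPM in 41589. Neither was called in 41589 against KO (adjusted p = 0.689 and 0.79), and the sign of Efhc2 followed the library (log2 fold 1.73 without 41589 library 2 and -1.75 without library 1).

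Other genes differed between 41589 and KO without a call in KO against WT, 175 of the lower and 76 of the higher ones. They are 1.38% and 0.598% of the 12700 genes not called in KO against WT, below the 4.65% and 2.44% of all genes. A gene without a call there can still differ between KO and WT. Tmem30b, a subunit of lipid flippases, was at 43.3 and 33.3 CPM in KO and 2.03 and 2.65 CPM in 41589, below the 22 and 8.31 CPM of WT, and fell by 4.02 ± 0.61 (adjusted p = 0.0026). Line 41584 was also low, at 4.09 and 1.55 CPM. Gbx2, a homeobox gene downstream of LIF, was at 3.17 and 4.77 CPM in KO, 3.4 and 10.3 CPM in WT and 25.1 and 44.6 CPM in 41589 (3.14 ± 0.67, adjusted p = 0.0144), a call lost without either KO library or 41589 library 2 (adjusted p up to 0.177). Slc1a3, a glutamate transporter, went from 21.7 and 19.09 CPM to 57.3 and 58.4 CPM (1.503 ± 0.312, adjusted p = 0.013, lost without either KO library, up to 0.136). Tmem30b and Slc1a3 were chosen after their values were seen.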

How the data were processed

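Poly(A) RNA of 12 libraries, 2 for each of 6 groups, was sequenced from reverse-stranded libraries, per the labels' protocols, and aligned with STAR 2.4.2a to mm10 (GRCm38), per the submitters' processing notes. Neither the program that counted reads nor its annotation is named in the labels used here. The authors deposited a table of raw, unnormalized counts that covers 47643 Ensembl genes. GENCODE M21 gave a symbol to 47224 of them and the 3′ UTRs.

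From these counts, edgeR 4.0.16 fitted its robust quasi-likelihood model to all 12 libraries after TMM scaling, with a mean for each group and 6 residual degrees of freedom. It tested the 14629 genes that passed filterByExpr, with Benjamini-Hochberg adjustment over all of them and calls at an adjusted p under 0.05. Folds are log2 ± SE. CPM is the count over the TMM-scaled library total. Where a group had 0 counts the fold is a bound against 3 counts over the group, and with 1 to 3 counts the ratio has an exact 95% interval. Both cover counting error only. DESeq2 1.42.0 was an alternative. Where leaving out a library left 1 in its group, that one was taken to vary as the remaining groups do. Tested on simulated data with 200 changed genes, edgeR recovered 22%, 84%, 100% and 100% of 50 genes changed by 1, 2, 3 and 4 log2 units in 41589 against KO, with 6 calls among unchanged genes. The changed genes all had a mean above 5 CPM, so recovery at lower levels was not tested.

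The lists, the comparisons and the naming rule were chosen with earlier results of these data known. Named genes are Dicer1, the small RNA machinery, the 12 lowest and 12 highest folds among called genes of at least 5 CPM with an ordinary symbol, up to 6 members a list by adjusted p and any needed to state what a list did, and Y-linked genes. Genes added after their values were seen are said to be so. Same-numbered libraries of 41589 and KO did not deviate together (Pearson r = -0.03).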

Additional observations from a re-analysis of the deposited data

How the results depend on the processing

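For 41589 against KO, 1037 genes were called, and 1049 with DESeq2's size factors in edgeR, 833 from the 4 libraries alone, 1433 by DESeq2 and 1034 without chromosomes 15 and Y. It was 1768 without the filter on low counts and 1788 with the trend over GC content and length removed, and it fell furthest, to 186, without KO library 1, in a range of 186 to 694 without single libraries. Calls among list members, 68 in all, ran from 19 to 57. For KO against WT (1929) it was 2950 without the filter, 4892 from 4 libraries and 237 to 606 without single libraries. For 41585 against 41584 (1861) these were 3073, 403 and 348 to 1820. For 41589 against WT the count of 0 became 541 without the filter, 75 by DESeq2, 7 with the trend removed and 0 to 647 without single libraries, and against 41584 3 without the filter and 0 to 1. Apart from fewer libraries or other genes tested, the cause was not tested.

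The replicate number as a block gave 1248 calls in 41589 against KO and 1 in 41589 against WT. Numbers are not stated to pair libraries. The correlation of deviations was -0.03 for 41589 and KO, -0.01 for KO and WT, 0.51 for 41589 and WT, 0.18 for 41589 and 41584, and 0.33 for 41585 and 41584. With 2 libraries a group each rests on 1 pair of deviations, so no pairing was assumed.

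Uncalled genes that changed sign, in log2 folds without single libraries, were Dicer1 (-0.38 to 0.22), Efhc2 (-1.75 to 1.73), Lamc1 (-0.77 to 0.22), Nanog (-0.056 to 0.32), Pou5f1 (-0.86 to 0.70, and -0.025 with the trend removed), Rangap1 (-0.52 to 0.071) and Sox2 (-0.023 to 0.42). The other genes named with a fold kept their sign in every fit run, apart from Fbxl5 and Lefty2, which were not followed across fits.

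With 2 libraries a group and 6 residual degrees of freedom, changes near 1 log2 unit were mostly beyond reach, and low counts limited the fold of nearly silent genes.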
